A study of Mus musculus with 8 samples.

Results

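Transcripts of 10 genes of replication origin licensing and of the replicative helicase were followed in mouse embryonic stem cells after induced deletion of Ino80. That gene encodes the motor subunit of INO80, a complex that slides and evicts nucleosomes. The genes are Mcm2, Mcm3, Mcm4, Mcm5, Mcm6, Mcm7, Mcm10, Gins1, Gins2 and Cdc6. They were chosen by name, 10 of the 24505 gene rows in each library's table, and each name was found once and passed the filter on low values. The helicase also needs Cdc45, Gins3 and Gins4, which are not among the 10 and are described with the other replication genes.

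RNA was sequenced from 8 libraries, 2 in each of 4 groups, all from a single mouse embryonic stem cell line labelled INO80 CKO. The naive groups were grown in 2iL, a medium with the MEK inhibitor PD0325901, the GSK3 inhibitor CHIR99021 and the cytokine LIF, on gelatin. The primed groups were grown in FAX, which holds XAV939, a tankyrase inhibitor, besides FGF2 and Activin A, on fibronectin. Each state has 2 libraries labelled wild type and 2 labelled knockout. To delete the gene, cells received 4-OHT at 100 nM over 2 days and were grown for 2 days after it, per the treatment protocol in the labels. The sources used here do not say whether wild-type cells were given 4-OHT. The question was what the deletion did to transcript levels in each state. The labels do not tell whether replicate libraries stem from separate cultures. All p-values therefore refer to a spread between libraries that is estimated over many genes and may be technical.

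Before DNA replication, the origin recognition complex and Cdc6 load the ring-shaped MCM2-7 hexamer onto origins, a step called licensing. Cdc45 and the GINS complex, made of Gins1 to Gins4, then join the hexamer to form the active CMG helicase, and Mcm10 helps that helicase start to unwind DNA. Embryonic stem cells divide fast, spend much of their cycle in S phase and are known for high levels of MCM proteins.

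Levels are given in RPKM, reads scaled to gene length and to the size of the library, as the authors deposited them after a further scaling by an unstated method. The values of a library summed to between 341480 and 507598 RPKM, and the read depth is unknown. Changes are differences of log2(RPKM + 1), knockout minus wild type, ± SE from limma, a linear model fitted across 13428 genes, and a gene was called at a Benjamini-Hochberg adjusted p under 0.05. The median difference of all tested genes was 0.049 in the naive state and -0.53 in the primed state, so most genes were lower in the primed knockout. Ino80 itself stood at 15.9 and 15.1 RPKM in the naive libraries labelled knockout against 17.0 and 14.5 in wild type, and at 9.12 and 8.74 against 15.9 and 20.3 in the primed state. It was called lower in the primed and not in the naive state (limma adjusted p = 0.975 in naive cells and 2.0e-06 in primed cells), and 1 value per gene also covers exons outside a deletion, so the naive libraries are called labelled knockout below. The primed difference of Ino80 was -0.93, beside the median of -0.53, and 59.3% of all tested genes were called lower there. For the primed libraries too, knockout is the label, and the deletion itself was not tested. Markers of the naive state summed to 812 to 921 RPKM in naive and 3.40 to 11.2 RPKM in primed libraries, in accord with the labelled states. Within the primed state, primitive streak markers summed to 57.6 and 63.3 RPKM in the knockout against 6.77 and 9.51 in wild type. T was the largest part, with a mean of 35.5 RPKM in the primed knockout against 2.42 in wild type. Mixl1, 1 of the 4 markers, was under 1 RPKM in every library and went the other way, at 0.0565 against 0.411. The others were higher in the knockout. Neural markers summed to 2.71 and 2.77 RPKM in the primed knockout against 15.9 and 21.5 in wild type. Of these 3 markers, 1, Neurog2, was under 1 RPKM in every library and went the other way, at 0.0976 in the primed knockout against 0.0308. Fibroblast markers summed to 6.94 and 7.07 RPKM against 17.9 and 26.4. The part of these shifts in the primed results below was not tested.

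Mcm2 had the lowest difference of the hexamer subunits in both states. In naive cells its level was 93.9 and 91.5 RPKM in libraries labelled knockout against 176 and 197 RPKM in wild type. Both libraries labelled knockout lay far below both wild-type libraries, at 49.7% of the wild-type mean. The naive change was -1.0 ± 0.090 (limma adjusted p = 1.2e-25). In the bulk RNA of a culture, fewer expressing cells and less RNA per cell cannot be told apart. In primed cells Mcm2 stood at 69.3 and 65.5 RPKM in the knockout against 129 and 144 RPKM in wild type. The groups again did not overlap, and the knockout mean was 49.2% of wild type. The primed change was -1.01 ± 0.090 (limma adjusted p = 1.7e-27). Mcm2 was called lower under all 17 alternative settings in naive cells, with adjusted p from 1.3e-50 to 0.0017 (limma). In primed cells it was called in 16 of 17, and the call ended with median centring, at -0.32 (limma adjusted p = 0.150, the highest over the alternatives, with 1.3e-36 the lowest).

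The stretches of DNA before the starts of Mcm2, Mcm5 and Mcm6 are shown because the first was called lower in both states, the second in neither, and the third in the primed state. Each is the run of 250 bases before the RefSeq gene start, on GRCm38.p6, read in the direction of transcription. Capitals mark any match to 4 spellings of the binding motif of E2F, the family of factors that drives many replication genes: TTTCCCGC, TTTCGCGC, TTTGCCGC and TTTGGCGC, on either strand and with overlaps joined. The windows are Mcm2 at chr6:88898781-88899030 on the minus strand, Mcm5 at chr8:75109259-75109508 on the plus strand and Mcm6 at chr1:128359706-128359955 on the minus strand.
Mcm2: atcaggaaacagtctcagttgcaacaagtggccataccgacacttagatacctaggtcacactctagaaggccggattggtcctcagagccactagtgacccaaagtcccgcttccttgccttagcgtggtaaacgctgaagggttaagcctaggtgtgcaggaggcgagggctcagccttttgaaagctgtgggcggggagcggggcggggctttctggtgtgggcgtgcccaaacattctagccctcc
Mcm5: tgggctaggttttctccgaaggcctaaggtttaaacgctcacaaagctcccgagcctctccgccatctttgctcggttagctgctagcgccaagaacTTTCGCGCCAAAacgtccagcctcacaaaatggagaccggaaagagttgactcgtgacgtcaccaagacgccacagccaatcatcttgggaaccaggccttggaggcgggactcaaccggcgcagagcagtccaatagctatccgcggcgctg
Mcm6: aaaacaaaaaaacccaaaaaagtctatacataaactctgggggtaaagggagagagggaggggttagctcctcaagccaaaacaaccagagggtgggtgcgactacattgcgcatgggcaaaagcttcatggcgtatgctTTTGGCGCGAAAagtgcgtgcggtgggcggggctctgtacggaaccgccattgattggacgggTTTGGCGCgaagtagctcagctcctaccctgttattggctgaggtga
The Mcm2 window held 0 of these matches, the Mcm5 window 2 that overlap and the Mcm6 window 3. Of the 10 genes, 7 had a window in the RefSeq table, with a second one for Mcm7, and matches lay in Mcm5, Mcm6, Cdc6 and 1 of the windows of Mcm7. A match was found in 1.86% of all 32851 windows of this length. CCAAT, the letters of the CCAAT box, occurred in 33.8% of all windows, and on one strand or the other in those of Mcm2, Mcm3, Mcm5, Mcm6, Mcm7 and Mcm10. These matches are letters in a window and are not measured binding. The files use the mm9 build, so these positions are not those of the reads.

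Mcm3, another hexamer subunit, was called lower as deposited, by a smaller amount, in both states. It stood at 142 and 140 RPKM in the naive libraries labelled knockout against 166 and 186 in wild type, and at 117 and 110 RPKM against 135 and 147 in the primed state. The groups did not overlap in either state, and means of the libraries labelled knockout were 79.9% and 80.5% of wild type. The changes were -0.32 ± 0.086 in naive cells (limma adjusted p = 0.0032) and -0.31 ± 0.086 in primed cells (limma adjusted p = 7.7e-04). The naive call ended without naive knockout replicate 1, without naive knockout replicate 2 or without naive wild-type replicate 2 (limma adjusted p = 0.117, 0.162 and 0.102, range over the alternatives 1.4e-05 to 0.285), with median centring (0.172) and without the trend (0.285). The primed call ended without primed knockout replicate 2 and without the trend (limma adjusted p = 0.055 and 0.106, range over the alternatives 3.6e-05 to 0.106). With median centring the primed difference was 0.38 and did not pass (limma adjusted p = 0.106). With quantile and loess normalization it was -0.10 and -0.074 (limma adjusted p = 0.0025 and 0.023). As deposited, primed Mcm3 lay 0.22 above the median of all tested genes and 0.12 above that of genes of a like level.

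Mcm6 fell in the primed state and did not pass in the naive state, and the difference between the states passed its own test. In naive cells it stood at 74.9 and 76.9 RPKM against 82.6 and 91.6 in wild type. In primed cells it stood at 52.9 and 51.5 RPKM against 79.0 and 85.8. The groups were apart in both states, by little in naive cells and with the primed knockout at 63.3% of wild type. The differences were -0.19 ± 0.10 in naive cells (limma adjusted p = 0.221) and -0.65 ± 0.10 in primed cells (limma adjusted p = 7.1e-10). The primed effect minus the naive effect was -0.45 ± 0.14 (limma adjusted p = 0.0046). Among genes of a like level the median of that difference was -0.47, so Mcm6 lay 0.013 above it, and its call ended when the trend (limma adjusted p = 0.107) or naive knockout replicate 2 (0.059) was left out (range over the alternatives 1.5e-05 to 0.318). With median centring the primed difference was 0.046 (limma adjusted p = 0.821).

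Mcm4, Mcm5 and Mcm7, the other hexamer subunits, were not called in either state. Mcm4 stood at 113 and 112 RPKM against 109 and 120 in naive cells and at 96.9 and 92.9 against 88.5 and 97.8 in primed cells. Mcm7 stood at 172 and 166 RPKM against 161 and 178 in naive cells and at 156 and 148 against 153 and 165 in primed cells. For both genes the libraries labelled knockout lay inside or across the wild-type range in each state. Mcm5, the most abundant of the 10 in naive cells, stood at 203 and 198 RPKM against 212 and 238 there, and at 122 and 117 against 114 and 125 in primed cells. Its naive groups did not overlap and its primed groups did. The primed differences were 0.028 ± 0.092 for Mcm4, 0.0012 ± 0.084 for Mcm5 and -0.065 ± 0.084 for Mcm7. The median of genes at a like level was -0.43 in that comparison, so the 3 genes lay 0.45, 0.43 and 0.36 above it. They were called higher in primed cells with median centring, quantile and loess normalization, at 0.72, 0.31 and 0.29 for Mcm4, 0.70, 0.23 and 0.24 for Mcm5, and 0.63, 0.14 and 0.16 for Mcm7.

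**Figure D1:**
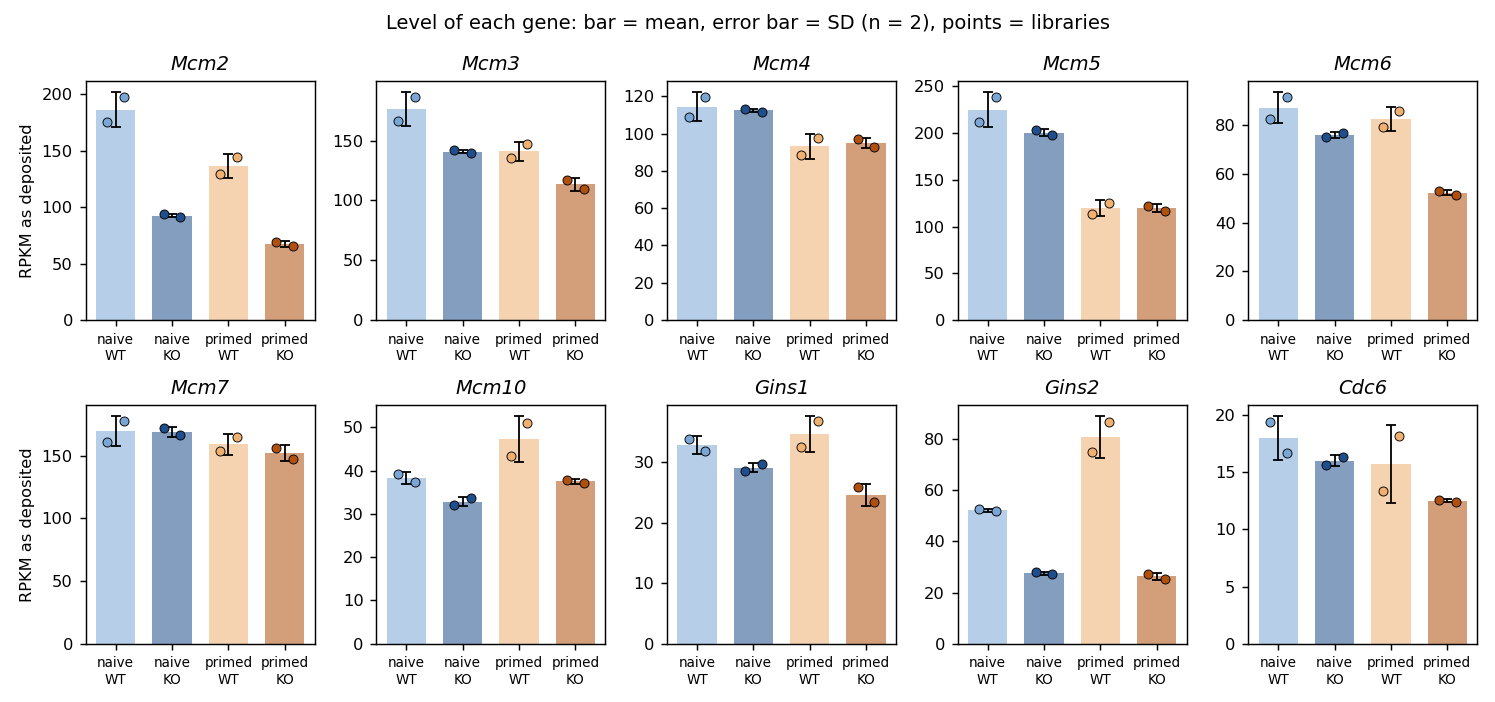
Level in RPKM (vertical axes from 0, a scale of its own for each gene) of the 10 genes by state and label, WT for wild type and KO for knockout; bars are means, error bars the SD of 2 libraries and points single libraries. The Mcm2 and Gins2 points of both groups labelled knockout lie well below wild type, while those of Mcm4 and Mcm7 overlap.

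The makeup of the MCM2-7 transcript pool was read within each library, where a factor that scales a whole library cancels. A scaling that changes with the level of a gene would not cancel, and the method of the authors is unstated. Mcm2 made up 19.4% and 19.5% of the summed RPKM of Mcm2 to Mcm7 in naive wild type and 11.8% and 11.7% in the libraries labelled knockout. In primed cells its share was 18.5% and 18.9% in wild type and 11.3% and 11.2% in the knockout. The libraries labelled knockout of both states lay together and more than 7 percentage points below wild type, with differences of -7.74 and -7.45 points. The shares of Mcm4, Mcm5 and Mcm7 were higher in libraries labelled knockout by 2.27, 1.85 and 3.70 points in naive and by 3.11, 3.62 and 3.61 points in primed cells. Mcm6 gained 0.511 points in naive and lost 2.55 points in primed cells. The share of Mcm3 differed by -0.586 and -0.342 points. Set against the mean of the other 5 subunits, Mcm2 stood at 1.21 ± 0.0070 in naive wild type and 0.663 ± 0.0041 in the naive libraries labelled knockout (SD, n = 2). The same ratio was 1.15 ± 0.019 in primed wild type and 0.633 ± 0.0027 in the primed knockout (SD, n = 2). These ratios show unequal change between subunits, not which one changed. An exact permutation test of 2 against 2 libraries cannot go below p = 0.333, so none was used for them.

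**Figure D2:**
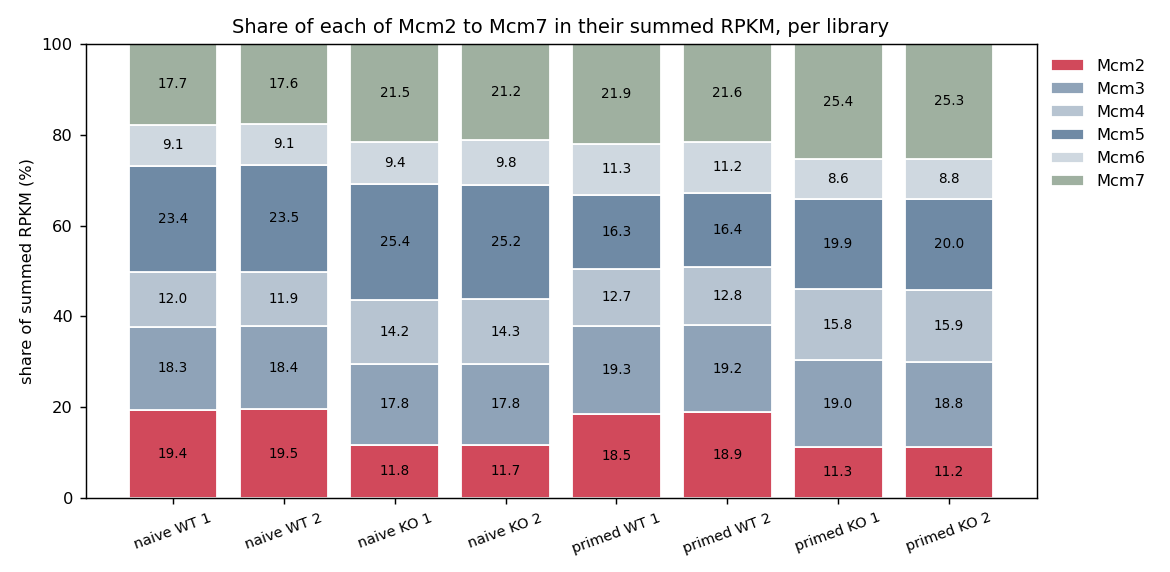
Share in percent of each subunit gene in the summed RPKM of Mcm2 to Mcm7, as a stacked bar for each of the 8 libraries, WT for wild type and KO for knockout. The Mcm2 share is between 18.5% and 19.5% in the wild-type libraries and between 11.2% and 11.8% in those labelled knockout.

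Cdc6, the loader that works with the origin recognition complex, was the least abundant of the 10 genes in every group and was not called in either state. It stood at 15.7 and 16.4 RPKM in naive libraries labelled knockout against 19.4 and 16.7 in wild type, and at 12.6 and 12.4 against 13.3 and 18.1 in primed cells. The libraries labelled knockout lay just under the lower wild-type library in both states, and that library was close to them. The differences were -0.16 ± 0.18 (limma adjusted p = 0.681) and -0.29 ± 0.18 (limma adjusted p = 0.136). With median centring, quantile and loess normalization the primed difference turned to 0.40, 0.37 and 0.34 and was called higher.

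Mcm10, which helps the assembled helicase to unwind DNA, stood at 32.1 and 33.6 RPKM against 39.3 and 37.3 in naive cells and at 37.9 and 37.1 against 43.5 and 51.1 in primed cells. Its groups did not overlap in either state. The naive difference of -0.22 ± 0.12 did not pass (limma adjusted p = 0.284), and the primed one of -0.32 ± 0.12 did (limma adjusted p = 0.015). The primed call ended without primed knockout replicate 1, primed knockout replicate 2 or primed wild-type replicate 2 (limma adjusted p = 0.083, 0.126 and 0.068, range over the alternatives 3.1e-05 to 0.126), with each state alone (0.064) and without the trend (0.098). The sign turned with median centring, to 0.37, and with quantile normalization, to 0.12, both called higher.

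Gins2 had the lowest difference of the 10 genes in the primed state. In naive cells it had 28.0 and 27.2 RPKM in those labelled knockout against 52.5 and 51.7 in wild type. In primed cells it stood at 27.2 and 25.4 RPKM against 75.0 and 86.6. Libraries labelled knockout lay far below wild type in each state, at 52.9% of the naive and 32.5% of the primed wild-type mean. The changes were -0.89 ± 0.12 in naive cells (limma adjusted p = 6.0e-12) and -1.58 ± 0.12 in primed cells (limma adjusted p = 9.6e-39). Gins2 was called lower under all 17 alternatives in each state, with adjusted p (limma) of at most 0.0037 in naive and 5.2e-05 in primed cells. The primed effect minus the naive effect was -0.69 ± 0.17 (limma adjusted p = 2.5e-04), or -0.22 after quantile normalization (limma adjusted p = 0.0022), while with median centring that difference was 0.064 and did not pass (limma adjusted p = 0.782).

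The level of Gins2 carries an uncertainty that the other 9 genes do not share to this degree. In the GENCODE annotation of GRCm38, 2758 of its 4097 exon bases lie within exons of Gse1 on the opposite strand, and the sources used here do not state which strand the authors counted. Reads of the pair can then not be told apart over those bases. Gse1 stood at 25.0 and 23.6 RPKM against 22.7 and 18.9 in naive cells and at 35.6 and 31.0 against 18.6 and 23.7 in primed cells. Gse1 was called higher in the primed knockout, by 0.64 ± 0.14 (limma adjusted p = 3.9e-05). Its value shares the uncertainty over those bases, and its part in the level of Gins2 was not tested. For Mcm7, 321 of 4426 exon bases overlap Ap4m1, also on the opposite strand.

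Gins1, another GINS subunit, was called lower in the primed state as deposited. Set against the median of all tested genes, its primed difference lay at 0.058, and against genes of a like level at -0.049. Gins1 stood at 28.6 and 29.6 RPKM against 33.9 and 31.8 in naive cells and at 25.9 and 23.4 against 32.5 and 36.7 in primed cells. The groups did not overlap in either state. The differences were -0.17 ± 0.13 (limma adjusted p = 0.507) and -0.48 ± 0.13 (limma adjusted p = 9.2e-04), and the primed one turned to 0.22, 0.032 and 0.0082 with median centring, quantile and loess normalization, none of them called, and its call ended without primed knockout replicate 2 (limma adjusted p = 0.062). Within libraries, Gins2 stood at 1.59 ± 0.054 times Gins1 in naive wild type and 0.948 ± 0.042 times in the naive libraries labelled knockout (SD, n = 2). In primed cells the ratio was 2.33 ± 0.036 in wild type and 1.07 ± 0.024 in the knockout (SD, n = 2).

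**Figure D3:**
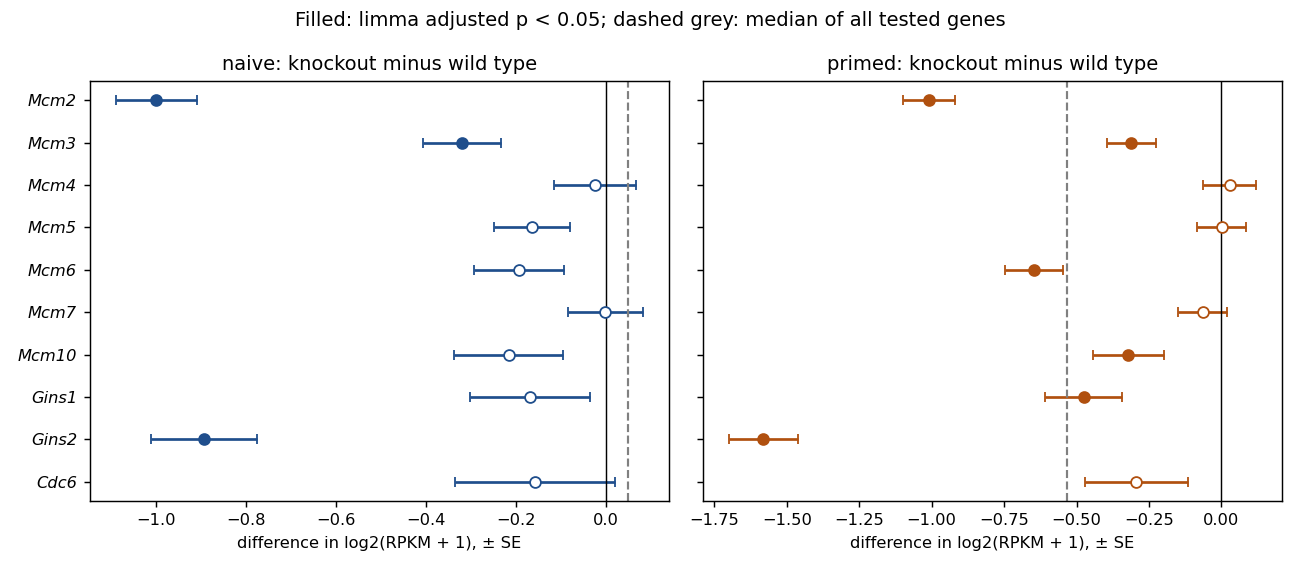
Difference in log2(RPKM + 1), knockout minus wild type, with its SE for each of the 10 genes in naive (left) and primed cells (right); filled points passed limma at an adjusted p under 0.05, and the dashed line marks the median of all tested genes. Mcm2 is near -1.0 in both states, and Gins2 is at -0.89 in naive and -1.58 in primed cells.

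Of the 10 genes, 3 were called lower and 0 higher in the naive state, Mcm2, Mcm3 and Gins2, where 5.85% of all tested genes were called lower and 6.08% higher. Their median difference was -0.18 against 0.049 for all genes and 0.060 for the 4762 genes of a like level. Libraries labelled knockout lay below wild type without overlap for 8 of the 10 and above it for 0, against 21.0% and 31.2% of tested genes. In the primed state 6 were called lower and 0 higher, adding Mcm6, Mcm10 and Gins1, where 59.3% of all tested genes were called lower and 4.16% higher. That share is close to the background of this comparison, and the median of -0.32 stood above the -0.53 of all genes and the -0.43 of genes of a like level. For 7 of the 10 the primed groups lay apart, all with the knockout lower, against 76.4% of tested genes lower and 6.77% higher. The primed effect was called lower than the naive one for 2 genes, Mcm6 and Gins2, and higher for 0, beside 47.4% and 2.16% of all tested genes. At an unadjusted p under 0.05 (limma) the counts of higher genes were also 0 in each of the 3 comparisons.

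The position of Mcm2 and Gins2 among all tested genes was read as well. In naive cells 0.849% of tested genes had a difference as low as that of Mcm2 or lower, and 1.35% as low as that of Gins2. In primed cells the shares were 20.2% and 5.44%. With quantile normalization within each state, which sets the distributions of the libraries of a state equal, 8 of the 10 genes were called lower and 0 higher in naive cells, where 27.4% of all genes were called lower and 32.0% higher. In primed cells the same normalization called 4 lower, Mcm2, Mcm3, Mcm6 and Gins2, and 5 higher, Mcm4, Mcm5, Mcm7, Mcm10 and Cdc6, with 34.6% and 39.4% of all genes. The median of the 10 was then -0.22 in naive and 0.078 in primed cells. The difference between states was then called lower for 1 gene, Gins2, and higher for 8, all but Mcm6, beside 30.5% and 34.0% of all genes.

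**Figure D4:**
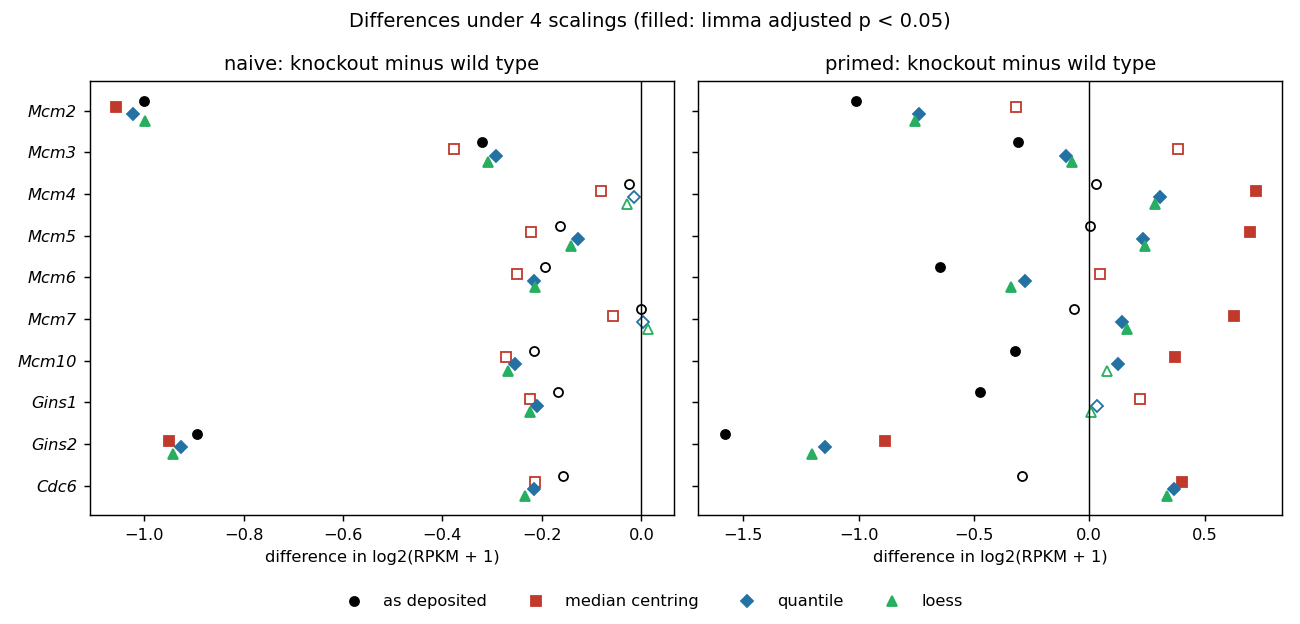
Difference in log2(RPKM + 1) of each of the 10 genes in naive and primed cells under 4 scalings, as deposited, median centring, quantile and loess normalization; filled symbols passed limma at an adjusted p under 0.05. Gins2 stays negative and filled under each of the 4, Mcm2 stays negative but is open with median centring in primed cells (-0.32), and Mcm4, Mcm5 and Mcm7 are positive and filled in primed cells under the 3 added scalings.

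The order of levels was compared between the groups. RPKM is scaled to gene length, so levels of different genes may be ordered within a library. In naive wild type Mcm5 led at 225 ± 18.4 RPKM, followed by Mcm2, Mcm3 and Mcm7, whose libraries overlapped from each to the next, then Mcm4, Mcm6, Gins2, Mcm10, Gins1 and Cdc6 at 18.0 ± 1.9 RPKM (SD, n = 2). In the naive libraries labelled knockout Mcm2 came after Mcm4 at 92.7 ± 1.70 RPKM and Gins2 came after Gins1 at 27.6 ± 0.531 RPKM (SD, n = 2). In primed wild type Mcm7 led at 159 ± 8.20 RPKM, Mcm3 and Mcm2 overlapped, and Gins2 at 80.8 ± 8.19 RPKM overlapped Mcm6 at 82.4 ± 4.81 RPKM (SD, n = 2). In the primed knockout Mcm2 again came after Mcm4, and Gins2 overlapped Gins1 at 26.3 ± 1.30 and 24.6 ± 1.78 RPKM (SD, n = 2). Across the libraries Mcm2 lay between the percentiles 92.8 and 97.9 of tested genes, Gins2 between 74.9 and 92.4, and Cdc6 between 53.7 and 65.5. Levels of the 2 states were not tested against each other because the files appear to have been scaled apart.

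Cdc45 and the other GINS subunits complete the helicase. Cdc45 stood at 41.9 ± 1.53 RPKM in the naive libraries labelled knockout against 42.1 ± 1.01 in wild type and at 28.6 ± 0.560 against 40.7 ± 5.00 in the primed state (SD, n = 2). Its difference was -0.0068 ± 0.12 in naive cells (limma adjusted p = 0.988) and -0.49 ± 0.12 in primed cells (limma adjusted p = 2.0e-04), near the median of all genes. Gins3 differed by -0.34 ± 0.22 (limma adjusted p = 0.387) and -0.52 ± 0.22 (limma adjusted p = 0.035), and Gins4 by 0.11 ± 0.11 (limma adjusted p = 0.644) and -0.33 ± 0.11 (limma adjusted p = 0.0064). With median centring the 3 primed differences turned to 0.21, 0.18 and 0.37, the last 2 called higher. The primed call of Cdc45 also ended after quantile and loess normalization, at -0.0053 and -0.039 (limma adjusted p = 0.909 and 0.350). Those of Gins3 and Gins4 ended with each state alone (limma adjusted p = 0.148 and 0.058), and that of Gins4 without the trend (0.088). Gins2 stood at 1.49 ± 0.019 times the mean of Gins1, Gins3 and Gins4 in naive wild type and 0.807 ± 0.019 times in the naive libraries labelled knockout (SD, n = 2). In primed cells this ratio was 2.64 ± 0.031 in wild type and 1.15 ± 0.0058 in the knockout (SD, n = 2).

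Of 72 other genes of replication and its control, all tested, 10 were called lower and 1 higher in naive cells, with a median difference of -0.010. That is 13.9% lower, beside 5.85% of all tested genes. Of the 72, 0 had a naive difference as low as that of Mcm2 or of Gins2. The 10 were Cdt1, which delivers the hexamer to origins, Tipin of the fork protection complex, the polymerase subunits Pold1, Pold3 and Pole2, Rpa2 and Rpa3 of the single-strand binding complex, Rrm2 and Dut of nucleotide supply, and Ccne1, a cyclin of S-phase entry. Tipin fell from 67.9 ± 1.64 to 39.5 ± 1.02 RPKM (SD, n = 2), a change of -0.76 ± 0.11 (limma adjusted p = 6.0e-10). Dut, which removes dUTP, fell by 0.55 on the log2 scale, and Rrm2, a subunit of ribonucleotide reductase, also by 0.55. Rb1, the pocket protein that restrains E2F, rose from 7.58 ± 1.16 to 16.4 ± 0.139 RPKM (SD, n = 2), by 1.03 ± 0.20 (limma adjusted p = 7.6e-06). In the licensing list 1 of 9 genes was lower, and in the list of CMG assembly and firing 0 of 11 were lower or higher (limma), also 0 at an unadjusted p under 0.05. Leaving out single libraries ended the naive calls of 7 of these genes, with the highest limma adjusted p of 0.231 for Cdt1, 0.368 for Pole2, 0.241 for Pold1 and 0.155 for Rpa3 without naive knockout replicate 2, and of 0.417 for Pold3, 0.371 for Rpa2 and 0.056 for Ccne1 without naive knockout replicate 1. The calls of Tipin, Dut, Rrm2 and Rb1 held in each such fit, but without the trend those of Dut and Rrm2 ended too (limma adjusted p = 0.064 and 0.056). Without the trend Cdt1, Pole2, Pold3, Pold1, Rpa3, Rpa2 and Ccne1 also lost their naive calls (limma adjusted p from 0.095 for Ccne1 to 0.243 for Rpa2), which leaves Tipin and Rb1. Median centring ended the naive calls of Cdt1 and Rpa2 (limma adjusted p = 0.059 and 0.054).

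In primed cells 47 of the 72 were called lower and 1 higher, again Rb1, so that 65.3% were lower, beside 59.3% of all tested genes. Their median was -0.46, and after quantile normalization 28 were called lower and 34 higher. The counts were 7 of 9 for licensing, 10 of 11 for CMG assembly and firing, 2 of 2 for the MCM relatives Mcm8 and Mcm9, 2 of 3 for fork protection and 10 of 12 for polymerases and primase. They were 5 of 12 for clamp, clamp loader and single-strand binding, 2 of 6 for nucleotide supply, 6 of 13 for E2F and pocket proteins and 3 of 4 for S-phase cyclins and kinases. Pola1, the catalytic subunit of the priming polymerase, fell from 29.0 ± 3.85 to 8.88 ± 0.0143 RPKM (SD, n = 2), by 1.60 on the log2 scale (limma adjusted p = 2.4e-22). Pold1 and Mtbp, a factor of origin firing, each fell by 1.36 on the log2 scale, Dut by 1.28, and Orc3 of the origin recognition complex by 1.24. Tipin changed by -0.99, Cdt1 by -0.89 and Ccne1 by -0.74. Other genes named by the rule were Pole2 at -1.19, E2f8 at -1.15, Mcm8 and Pold3 at -1.10, Rbl1 at -0.97, Recql4 at -0.88, Rfc1 at -0.73, Mcm9 at -0.68, Timeless at -0.53, Rfc4 at -0.49, Ccna2 at -0.46 and Rpa2 at -0.32. Leaving out single libraries ended the primed calls of Rb1 (limma adjusted p up to 0.230, without primed wild-type replicate 1), Gins3 (0.234, without primed wild-type replicate 2), and Mcm9, Rpa2 and Gins4 (0.187, 0.142 and 0.093, without primed knockout replicate 2). Those of Rb1 and Rpa2 ended with each state alone (limma adjusted p = 0.102 and 0.057), that of Rpa2 without the trend (0.102) and that of Mcm9 without the filter (0.062). In both states 8 of the 72 were called lower, and these were Cdt1, Tipin, Pold1, Pold3, Pole2, Rpa2, Dut and Ccne1. They come from the 10 called lower in naive cells, beside 59.3% of all tested genes called lower in primed cells. The share of all tested genes called lower in both states is not given.

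**Figure D5:**
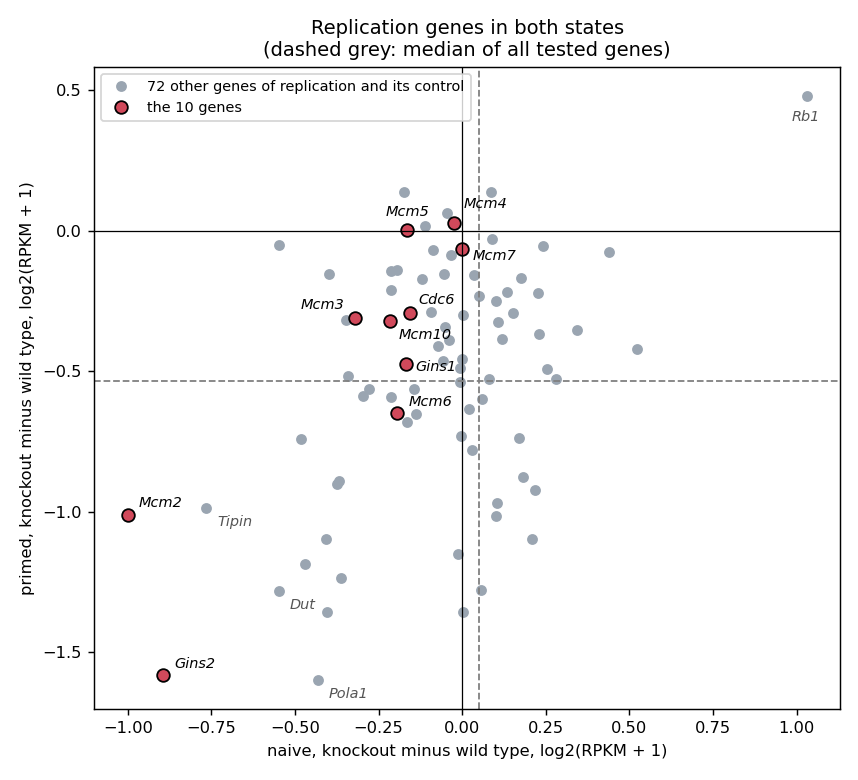
Difference in log2(RPKM + 1), knockout minus wild type, in naive (horizontal) and primed cells (vertical) for the 10 genes and 72 other genes of replication and its control; dashed lines mark the medians of all tested genes. Mcm2 and Gins2 lie to the left of the other genes, and Rb1 is high in both states.

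The 5 tested genes whose pattern over the 8 libraries was closest to the mean of the 10 were Tmed9, Lbr, Farsa, Mrps2 and Eif2a, by the root mean square difference of log2 values centred within each state. That difference ran from 0.018 for Tmed9 to 0.023 for Eif2a. The 10 genes themselves lay farther from their own mean, from 0.064 for Mcm3 to 0.31 for Mcm2 and 0.44 for Gins2. The 5 were picked as the closest of all other tested genes, so this comparison does not measure how alike the 10 are.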

How the data were processed

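Total RNA libraries were made after removal of ribosomal RNA, with ERCC spike-in RNA added to the lysate, per the labels' protocols. The submitters' processing notes name cutadapt 1.9, STAR 2.5.2b, featureCounts 1.5.1, affy and the build mm9, without parameters or the strand counted. The authors deposited 1 RPKM value per gene and library, and 0 of these values are at zero. A further scaling by the authors was read from the values, since a gene tied with another in any library is tied in the 4 libraries of that state. The tables hold 0 rows of spike-in RNA, which leaves no absolute scale. Depth is unknown, so no counting interval is given.

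For testing, log2(RPKM + 1) was used. A gene entered the test with 1 RPKM or more in 2 or more libraries, which left 13428. All 8 libraries went into a single limma model (limma 3.58.1, R 4.3.3) of 4 group means with a variance trend. Contrasts were knockout minus wild type for naive cells, the same for primed cells, and the second minus the first. Benjamini-Hochberg adjustment ran over all tested genes with a threshold of 0.05. The prior degrees of freedom came out infinite, against 4 residual ones and a median residual SD of 0.179. The p-values thus rest on the spread that the trend gives at a gene's level, not on the gene's own spread. Large changes therefore get very small p-values. After quantile normalization these were 3.73 and 0.0477.

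Alternatives tried were 0.1 as the pseudocount, no filter, a filter of 5 RPKM, median centring, quantile and loess normalization within each state, a separate fit for each state, no trend, a replicate block, and dropping single libraries in turn. The procedure was tested on simulated data without a shift of whole libraries or of most genes, so that test does not cover the primed comparison. The 10 genes, the lists of 72 genes and the alternatives were chosen with earlier results of these data known. Named are the 10 genes, Ino80, Cdc45, Gins3, Gins4, up to 2 called genes per list, state and direction with the largest change and no overlap, and the 5 genes of closest pattern. 1 gene that this rule selects is not reported here. Gse1 and Ap4m1 were named for their overlap with Gins2 and Mcm7. T, Mixl1 and Neurog2 were named for their part in the marker sums. Plots were made in Python 3.11.15 (matplotlib 3.10.9).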

Additional observations from a re-analysis of the deposited data

Results flagged for a closer look

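The knockout effect differed between the states for 2 of the 10 genes, by limma's test of the difference itself. For Gins2 the primed effect minus the naive effect was -0.69 ± 0.17 (limma adjusted p = 2.5e-04), from -0.89 in naive and -1.58 in primed cells. For Mcm6 it was -0.45 ± 0.14 (limma adjusted p = 0.0046), from -0.19 and -0.65. In the same comparison 47.4% of all tested genes were called lower and the median of all tested genes was -0.59. Set against that median, Gins2 lay at -0.098 and Mcm6 at 0.14. The call of Mcm6 ended after quantile normalization, at -0.062 (limma adjusted p = 0.291), and that of Gins2 did not.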

How the results depend on the processing

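As deposited, the results rest on the unstated scaling. In naive cells Mcm2 (-1.08 to -0.92) and Gins2 (-0.95 to -0.87) were called in every setting run. The naive count of all genes called, 1602, was 4456 with median centring, 7978 with quantile and 7719 with loess normalization, 2526 with each state alone, 908 without the trend and 942 with the replicate block; the 3 members called lower became 8, 8 and 5 with quantile, loess and each state alone. The naive Mcm2 share difference was -8.06 points after quantile normalization. In primed cells the 6 called lower became 1 with median centring, while 5, 5 and 4 were called higher with median centring, quantile and loess, and the median became 0.38, 0.078 and 0.043. Between states, the 2 differences called lower became 0 with median centring and 1 each with quantile, loess, no trend and the replicate block. Called higher with median centring, quantile and loess were 7, 8 and 8, and the median was 0.67, 0.26 and 0.24. After quantile normalization 39.4% of all tested genes were called higher in primed cells and 34.0% for the difference. The like shares with median centring and loess are not given, so those counts have no background beside them.

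Signs changed as follows, with median centring, quantile and loess values in that order. Primed Mcm7 turned to 0.63, 0.14 and 0.16, Mcm10 to 0.37, 0.12 and 0.078, Gins1 to 0.22, 0.032 and 0.0082, Cdc6 to 0.40, 0.37 and 0.34, Gins3 to 0.18, 0.22 and 0.23, Gins4 to 0.37, 0.12 and 0.070, Mcm9 to 0.014, 0.11 and 0.096, Rpa3 to 0.54, 0.23 and 0.16, Rpa2 to 0.38, 0.12 and 0.064, and Rrm2 to 0.64, 0.16 and 0.18. With median centring alone primed Mcm3 turned to 0.38, Mcm6 to 0.046, Cdc45 to 0.21, Timeless to 0.17, Rfc4 to 0.20 and Ccna2 to 0.23. The difference between states turned to 0.74, 0.28 and 0.24 for Mcm2, 0.69, 0.14 and 0.15 for Mcm7, 0.65, 0.38 and 0.35 for Mcm10, 0.44, 0.24 and 0.23 for Gins1, 0.61, 0.58 and 0.57 for Cdc6, and with median centring alone to 0.30 for Mcm6 and 0.064 for Gins2. Naive Mtbp turned to -0.053, -0.074 and -0.080, and naive Mcm7 to 0.0041 with quantile and 0.012 with loess. Median centring also ended the primed calls of Cdt1, Tipin, Rfc1 and Ccne1 (limma adjusted p = 0.299, 0.089, 0.811 and 0.785).

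Leaving out 1 library at a time, with a lone library assumed to vary like the other groups, naive calls ran from 552 to 2946 for all genes and from 2 to 5 for the members. Primed calls ran from 5539 to 9960 and from 3 to 7, with a median of -0.47 to -0.23 and an Mcm2 share difference of -7.62 to -7.27 points. For the difference between states the calls ran from 3457 to 9269 and from 1 to 3, with a median of -0.17 to 0.037. Signs crossed in naive Mcm4 (-0.091 to 0.043), Mcm7 (-0.074 to 0.071), Cdc45 (-0.043 to 0.030), Mcm9 (-0.37 to 0.037), Mtbp (-0.13 to 0.13), Rfc1 (-0.041 to 0.033), E2f8 (-0.22 to 0.19), Rbl1 (-0.079 to 0.29) and Ccna2 (-0.15 to 0.033). They crossed in primed Mcm4 (-0.043 to 0.099), Mcm5 (-0.068 to 0.070) and Rrm2 (-0.13 to 0.023), and in the difference for Mcm2 (-0.093 to 0.072), Mcm3 (-0.072 to 0.090), Mcm4 (-0.019 to 0.12), Mcm7 (-0.14 to 0.0087), Mcm10 (-0.22 to 0.0074) and Cdc6 (-0.34 to 0.072). None of these results was called as deposited. The cause of the changes under other scalings was not tested.

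The labels do not say whether libraries of the same replicate number belong together. Deviations of same-numbered libraries from their group means had a correlation of 0.314 in naive and -0.036 in primed cells. With the replicate block, calls of naive Mcm3 and primed Mcm10 ended (limma adjusted p = 0.0895 and 0.0918), as did the difference of Mcm6 (0.0586). It also ended the naive calls of Cdt1, Pole2, Pold3, Pold1, Rpa3 and Rpa2 (0.097, 0.175, 0.207, 0.112, 0.072 and 0.175) and the primed calls of Gins3, Gins4, Rpa2 and Rb1 (0.078, 0.062, 0.060 and 0.077).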

Other observations

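Some neighbours of the 10 genes start close to them on the opposite strand in the GENCODE annotation of GRCm38, and their values were read for comparison. The start of Prkdc, the gene of a kinase of DNA repair, lies 466 bases from that of Mcm4. Prkdc stood at 1.12 and 1.25 RPKM in the primed knockout against 9.17 and 12.8 in wild type, a change of -2.44 ± 0.28 (limma adjusted p = 3.0e-17), while Mcm4 differed by 0.028. In naive cells Prkdc differed by -0.68, which did not pass (limma adjusted p = 0.091). The start of Abhd12 lies 659 bases from that of Gins1, and Abhd12 differed by 0.13 in naive cells, which did not pass (limma adjusted p = 0.678), and by -0.69 in primed cells (limma adjusted p = 1.4e-05). Ap4m1, 420 bases from the start of Mcm7, rose in primed cells by 0.49 ± 0.18 (limma adjusted p = 0.013), while Mcm7 differed by -0.065. Cops6, which overlaps Mcm7 by 64 exon bases on the opposite strand, fell by 0.42 on the log2 scale in naive cells (limma adjusted p = 3.3e-04) and by 1.11 in primed cells (limma adjusted p = 2.5e-28). The primed values stand beside a median of -0.53 and 59.3% of all tested genes called lower. These neighbours were named after their values were seen.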
